A study of Homo sapiens with 14 samples.

Results

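Doxycycline-induced overexpression of CTNNB1, the gene of beta-catenin, was compared with wild type in neural cells derived from H9, an embryonic stem cell line of human origin. The comparison uses 6 of the 14 libraries of the series, 3 from the induced line and 3 from wild type, chosen by their labels. Of the 58051 genes in the deposited table, 16101 were tested, namely those whose normalized read count reached 10 in 3 or more of these 6 libraries. The cells were progenitors with the identity of the medial ganglionic eminence (MGE), the ventral forebrain region from which cortical interneurons come. Every group was treated with SB431542 at 2 µM and LDN193189 at 200 nM on days 0 to 6, inhibitors of TGF-beta and BMP signalling. Sonic hedgehog (SHH) at 250 ng/mL and purmorphamine at 0.3 µM, an activator of smoothened, followed on days 10 to 17. The spheres were then kept in suspension and collected on day 25. The wild type group (WT) received no doxycycline. The induced group (OE with Dox) carried the inducible CTNNB1 construct and was given the drug at 0.1 µg/mL between days 17 and 25. A further group, the same line without the drug (OE without Dox, 3 libraries), is set beside both where it bears on a gene. Since no WT library received doxycycline, the transgene, the drug and the difference between lines cannot be told apart in the comparison itself. Neither the form of CTNNB1 expressed nor the number of clones is given in the labels. They also do not say whether the replicates are separate cultures, so p-values measure only the spread between these libraries, which may be technical.

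Beta-catenin is the transcriptional arm of canonical WNT signalling. Without WNT it is marked for destruction by a complex of AXIN, APC and GSK3B, and with WNT it enters the nucleus and binds TCF and LEF factors. Among the genes it switches on are inhibitors of the pathway itself, which form a negative feedback loop. In the embryonic forebrain, WNT ligands are made dorsally by the cortical hem and roof plate, while SHH patterns the ventral side, where the MGE lies.

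The 6 libraries held 5489674 to 5639725 reads assigned to genes, and their 10 most abundant genes took 2.66% to 3.5% of them. A count of 0 allows up to 3 reads, or a normalized count of 2.60 to 2.84. These limits cover counting error only, since the reads carry no molecular identifiers. Replicates of a group differed far more than counting allows: the ratio of their squared differences to the counting variance ran from 8.57 to 15.53. Values are normalized read counts, given as replicates 1, 2 and 3, and folds are differences of log2(normalized count + 1) from limma with two-sided Benjamini-Hochberg adjusted p-values. A gene is called where the adjusted p is under 0.05. A gene under 10 in every WT library was tested only where all 3 induced libraries reached 10. For such a gene the filter left little room for a direction other than higher, and the reverse holds for genes low in the induced group.

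Of the 16101 genes, 1772 were called higher in OE with Dox than in WT (11.0%) and 1647 lower (10.2%), together 21.2%. These shares are the background for every list count below. In any list, a member under 10 in every WT library had little room to be called other than higher. Such members can raise a list's count called higher and its median. At least 2-fold differences were found for 1106 of the genes called higher and 895 of those called lower. Differences of at least 8-fold were less even, with 301 genes higher and 90 lower. The groups did not overlap for 2700 genes that were higher (16.8%) and 2475 that were lower (15.4%), together 32.1%. The median log2 fold over all genes tested was 0.02. Of the 3419 called genes, 3088 were protein coding. For the line without Dox against WT, 897 of the same genes were called (5.57%), 516 higher (3.2%) and 381 lower (2.37%), and for OE with Dox against OE without Dox 4204 were (26.1%), 2193 higher (13.6%) and 2011 lower (12.5%). These comparisons share libraries with the first and are not independent of it.

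**Figure D1:**
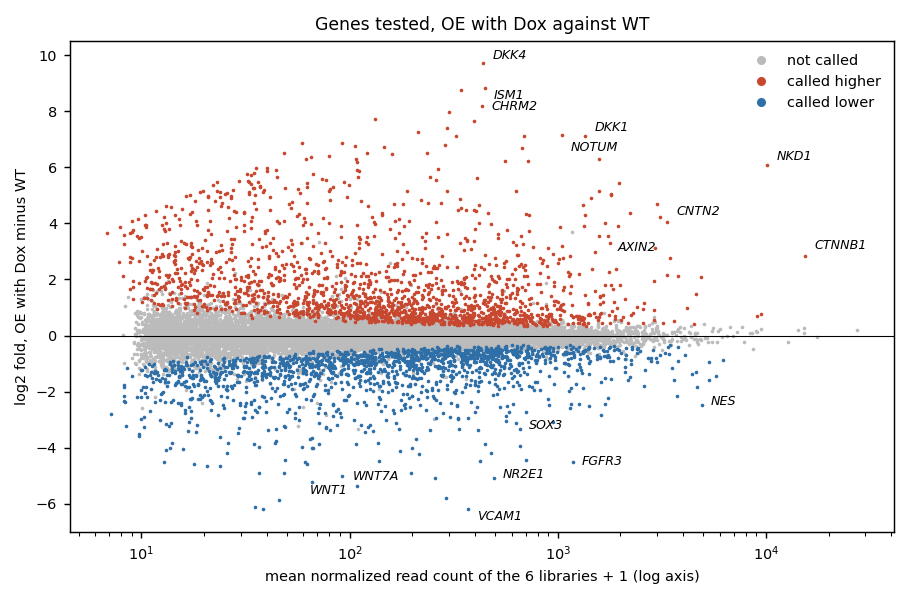
Each point is 1 of the 16101 genes tested, with its mean normalized read count over the 6 libraries plus 1 on a log axis and its log2 fold, OE with Dox minus WT. The 1772 genes called higher are red and the 1647 called lower are blue. Among the genes named in the text with a mean of at least 100, the highest fold, of DKK4, lies further from 0 than the lowest, of VCAM1.

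CTNNB1 (ENSG00000168036, hg38 chromosome 3, 41194741 to 41260096, plus strand) was measured first, as the check of the labels. It stood at 4393, 3803 and 3248 in the WT libraries and at 26030, 23860 and 31290 in OE with Dox (log2 fold 2.83, SE 0.14, adjusted p = 1.7e-10). The means were 3814 ± 573 and 27060 ± 3820 (SD, n = 3), and every induced library lay above every WT library. Without Dox the same line stood at 3084, 3318 and 3633, a log2 fold of -0.18 against WT that was not called (adjusted p = 0.55). The counts do not separate transcripts of the construct from those of the resident gene.

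Feedback genes and other target genes of the WNT pathway were mostly called higher. Of 18 such genes, all tested, 16 were called higher and 1 lower, with a median log2 fold of 3.01. Members such as FGF20, RNF43 and CDX1 were under 10 in every WT library and passed the filter only through the induced libraries. The count called higher and the median are therefore partly set by the filter. The list, called feedback genes below, also holds targets that are not inhibitors, such as FGF20, TBXT and CCND1. Some members, FGF20 among them, are counted again in other lists. AXIN2, a scaffold of the destruction complex and a widely used readout of the pathway, stood at 273, 289 and 262.5 in WT and 3044, 3374 and 3232 with induced CTNNB1 (log2 fold 3.55, SE 0.15, adjusted p = 4.3e-11). The 3 libraries of each group lay close together and far from the other group. NKD1, an inhibitor of dishevelled, went from 338, 321 and 236 to 17920, 19540 and 22550 (log2 fold 6.07, SE 0.19, adjusted p = 5.2e-13). Its relative NKD2 rose from 26.5, 38.4 and 34.65 to 271, 328 and 373 (log2 fold 3.25). RNF43 and ZNRF3 are membrane ubiquitin ligases that remove WNT receptors from the cell surface. RNF43, close to its detection limit in WT at 0.947, 5.36 and 6.93, stood at 550.3, 619 and 760.4 after induction (log2 fold 7.11, SE 0.56, adjusted p = 6.8e-08). ZNRF3 started higher, at 379.6, 304 and 263, and reached 940, 1128 and 1025 (log2 fold 1.72). The transcription factor SP5, itself a repressor of WNT target genes, rose from 120.2, 124 and 139 to 1977, 2734 and 2973 (log2 fold 4.30, SE 0.29, adjusted p = 8.9e-09). Among the nuclear partners of beta-catenin, LEF1 went from 414, 514 and 353 to 1615, 2018 and 1901 (log2 fold 2.12) and TCF7 from 101, 59.0 and 86.6 to 147, 206 and 312.5 (log2 fold 1.39). No WT library reached the lowest induced one for any of these genes.

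Others of the group started from nearly nothing. FGF20, a growth factor, was at 0, 0.894 and 0.866 in WT and 501, 979.6 and 575 in OE with Dox (log2 fold 8.75, SE 0.45, adjusted p = 3e-10). ASCL2 and CDX1, transcription factors of intestinal stem cells and of the posterior embryo, rose by log2 folds of 5.29 and 5.14, and the mesoderm factor TBXT by 4.34. APCDD1, a membrane inhibitor of WNT ligands, varied widely in WT, at 339, 1847 and 887, and stood at 3720, 7727 and 6128 after induction (log2 fold 2.77, SE 0.45, adjusted p = 0.00055). The 2 exceptions were the cell cycle gene CCND1 and the stem cell receptor LGR5. CCND1 was lower, at 2402, 1559 and 1635 in WT and 742, 1260 and 1007 in OE with Dox (log2 fold -0.90, SE 0.24, adjusted p = 0.01), and this call was lost without WT replicate 1 or OE with Dox replicate 1 (highest adjusted p = 0.055). LGR5 stood at 333, 146 and 149 and 186.5, 254 and 144, with overlapping groups and a log2 fold of -0.03 (SE 0.33).

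Without Dox 8 of the 18 feedback genes were called lower than WT and 1 higher, with a median log2 fold of -0.60. SP5 was at 23.8, 23.1 and 35.4 there (log2 fold -2.20, adjusted p = 0.00018), APCDD1 at 149, 163 and 139.6 (-2.45, 0.0066) and AXIN2 at 193, 144 and 181 (-0.67, 0.013). For these genes the difference between the induced line and WT is smaller than that between the induced and uninduced line.

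TCF and LEF proteins bind sequences built around the letters CTTTGA. The heptamers CTTTGAT and CTTTGAA were searched on both strands in the RefSeq promoters (GRCh38.p14, 250 bases before to 50 after each start). Of 13143 tested protein-coding genes, 10705 had a promoter entry by symbol (81.5%), and 656 of those held a heptamer in at least 1 window (6.13%), as did 8.35% of all 27305 genes in the promoter table. Of the genes called higher 79.2% had an entry and of those called lower 79.1%, both under the 80% taken as needed, so shares of these groups are not compared. Among feedback genes and secreted antagonists called higher, 12 of 22 had an entry, and SP5, TBXT and DKK1 held a heptamer. ASCL2, AXIN2, CDX1, DKK2, DKK4, FGF20, FGF9, NKD1, NOTUM and ZNRF3 had no entry. The 250 bases before the start are shown for these 3 genes and for GZMA, which is among the 15 largest rises described further on, because they show where the letters lie in promoters of genes that rose. SP5 lies at chr2:170715087-170715336 (plus strand), DKK1 at chr10:52314031-52314280 (plus strand), TBXT at chr6:166167852-166168101 (minus strand) and GZMA at chr5:55102396-55102645 (plus strand). Each is written 5′ to 3′ on the strand of the gene, and capitals mark a heptamer or, as TTCAAAG, its reverse complement.

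SP5: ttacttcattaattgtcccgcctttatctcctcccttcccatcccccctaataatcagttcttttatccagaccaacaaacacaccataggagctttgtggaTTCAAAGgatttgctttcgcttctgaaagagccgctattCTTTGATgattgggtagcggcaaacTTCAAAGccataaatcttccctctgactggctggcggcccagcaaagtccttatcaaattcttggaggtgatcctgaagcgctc

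DKK1: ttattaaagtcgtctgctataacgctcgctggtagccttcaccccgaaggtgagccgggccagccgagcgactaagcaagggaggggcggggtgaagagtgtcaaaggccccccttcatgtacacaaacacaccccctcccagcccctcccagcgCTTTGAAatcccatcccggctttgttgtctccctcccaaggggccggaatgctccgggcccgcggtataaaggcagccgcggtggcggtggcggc

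TBXT: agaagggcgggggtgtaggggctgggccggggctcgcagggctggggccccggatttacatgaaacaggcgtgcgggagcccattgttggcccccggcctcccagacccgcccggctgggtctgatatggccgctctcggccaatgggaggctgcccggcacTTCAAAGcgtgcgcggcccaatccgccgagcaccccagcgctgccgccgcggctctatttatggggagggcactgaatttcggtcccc

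GZMA: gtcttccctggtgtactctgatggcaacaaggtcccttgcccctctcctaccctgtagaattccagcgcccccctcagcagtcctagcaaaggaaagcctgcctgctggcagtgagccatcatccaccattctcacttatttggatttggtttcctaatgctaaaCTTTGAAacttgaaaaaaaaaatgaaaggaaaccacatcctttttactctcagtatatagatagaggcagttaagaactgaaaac

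In the bases shown SP5 holds 3 heptamers, 1 on its own strand and 2 on the other, beginning 148, 109 and 84 bases before the start. In the other promoters there is 1 each, beginning 95 bases before the start in DKK1, 88 in TBXT and 85 in GZMA. A match is a description of letters and says nothing of binding.

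Secreted inhibitors of WNT were called in both directions. Of 13 members 10 were tested, with 6 called higher and 3 lower. DKK4 and WIF1, without a read in WT, passed the filter only through the induced libraries, so the count called higher is partly set by it. DKK4, which blocks the LRP co-receptors, had no read in any WT library and stood at 605, 826 and 1195 after induction, at least 323.5-fold higher against the mean floor of 3 reads per library (log2 fold 9.72, SE 0.49, adjusted p = 2.2e-10). It had the largest fold of all genes with a mean of at least 100. DKK1 went from 13.25, 15.2 and 21.7 to 1392, 4374 and 2304 (log2 fold 7.12, SE 0.46, adjusted p = 4.9e-09), with OE with Dox replicate 2 highest. NOTUM, an enzyme that removes the lipid of WNT proteins, rose from 12.3, 13.4 and 13.9 to 1685, 2688 and 1875 (log2 fold 7.17, SE 0.32, adjusted p = 5.8e-11). TRABD2A, a membrane protease that cuts WNT proteins and is not in the list, rose from 6.63, 2.68 and 3.465 to 558, 494 and 643 (log2 fold 6.81). WIF1, a WNT-binding protein, was at 0 in all WT libraries and at 22.2, 91.1 and 74.7 with Dox, at least 23.1-fold higher. DKK2 rose by a log2 fold of 5.66. The frizzled-related proteins SFRP1 and SFRP2 fell. SFRP1 stood at 2572, 1968 and 2742 in WT and 579.9, 965 and 808 after induction (log2 fold -1.65, SE 0.21, adjusted p = 1.6e-05), and SFRP2 at 3454, 1609 and 3476 and 306, 511 and 347.5 (log2 fold -2.82, SE 0.26, adjusted p = 5.1e-07). Without Dox SFRP2 was already lower than WT (log2 fold -1.29, adjusted p = 0.0061). DKK3 was lower too (log2 fold -1.15). FRZB was higher than WT, at 476, 368 and 282 against 154, 224 and 139 (log2 fold 1.12), but stood highest in the line without Dox, at 860.5, 545 and 817.

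Most WNT ligands fell. Of 19 members 15 were tested, and 10 were called lower and 3 higher, with a median log2 fold of -1.97. WNT7B stood at 966.5, 715 and 1002 in WT and at 23.1, 93.9 and 47.9 with induced CTNNB1 (log2 fold -4.20, SE 0.51, adjusted p = 2.2e-05), and WNT7A at 314, 367 and 445 and 13.85, 26.95 and 3.69 (log2 fold -4.90, SE 0.45, adjusted p = 1.2e-06). WNT1 dropped from 121, 248 and 256 to 0.923, 13.9 and 2.765 (log2 fold -5.38, SE 0.60, adjusted p = 3.4e-06), and WNT8B, made by the cortical hem, from 179, 167 and 255.5 to 10.2, 18.6 and 10.1 (log2 fold -3.88, SE 0.47, adjusted p = 6.6e-06). WNT3A (log2 fold -4.60), WNT10B (-3.70), WNT2B (-2.15) and WNT4 (-1.97) were also lower, and all 6 libraries separated for each of them. Several of these were already low in the uninduced line: WNT1 stood at 11.0, 22.2 and 30.8 there (log2 fold -3.26, adjusted p = 0.0035), and WNT7B at 186.5, 234 and 302 (-1.90, 0.042). Both were called lower still with Dox than without it (adjusted p = 0.014 and 0.0033). WNT10B (-3.34, 0.00018), WNT3A (-3.04, 0.0046) and WNT2B (-1.67, 0.00042) were also called lower without Dox than in WT. These were not called with against without Dox (adjusted p = 0.61, 0.062 and 0.16). The list's median was -1.21 without Dox against WT and -0.43 with against without Dox. The ligands that rose came from near 0, WNT16 from 2.84, 0 and 0 to 66.5, 87.4 and 54.4, WNT6 from 0, 0 and 0.866 to 12.0, 20.45 and 24.0 and WNT10A from 0.947, 0.894 and 0 to 17.5, 11.15 and 22.1. Each of these 3 passed the filter only through the induced libraries. R-spondins protect WNT receptors from RNF43 and ZNRF3, and of 6 tested R-spondins and R-spondin receptors 3 were called lower and 1 higher. RSPO2 went from 354, 740 and 401 to 9.23, 18.6 and 12.9 (log2 fold -5.07, SE 0.38, adjusted p = 2.2e-08) and RSPO3 from 179.9, 169.8 and 191 to 43.4, 32.5 and 24.9 (log2 fold -2.42). Without Dox RSPO2 was already lower than WT (log2 fold -2.36, adjusted p = 0.00099). Their receptor LGR4 fell from 1068, 1083 and 898 to 219.8, 248 and 118 (log2 fold -2.44, SE 0.22, adjusted p = 3.8e-07), while RSPO4 rose from 1.89, 2.68 and 4.33 to 16.6, 29.7 and 24.9.

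**Figure D2:**
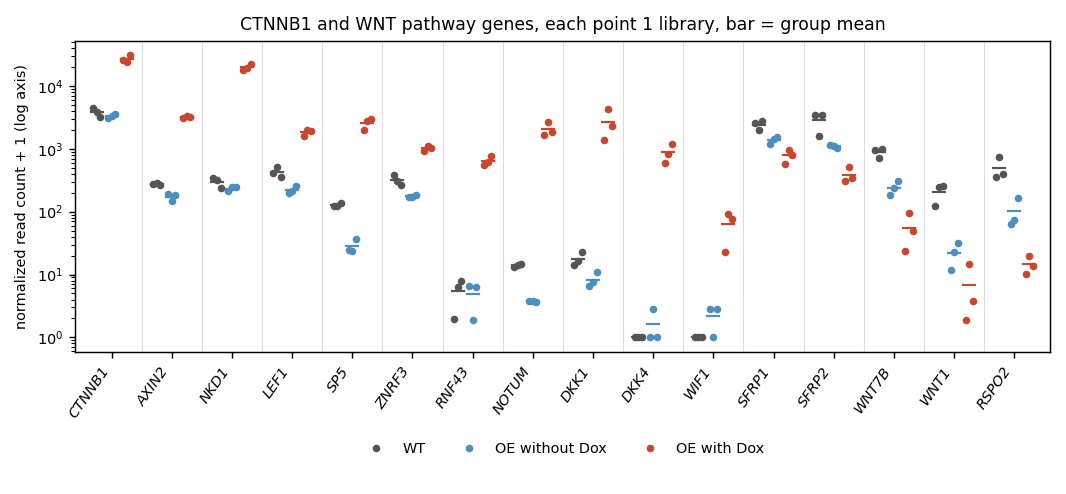
Normalized read count plus 1 on a log axis for CTNNB1 and 15 WNT pathway genes, with 1 point per library, bars at the mean of 3 libraries, and colours for WT and for the inducible line with and without Dox. Feedback genes and DKK-type antagonists stand highest with Dox, whereas SFRP1, SFRP2, WNT7B, WNT1 and RSPO2 stand highest in WT and lowest with Dox.

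WNT receptors were called in both directions. Of 16 frizzleds and co-receptors, 5 were called higher and 4 lower. FZD10 stood at 15.15, 163 and 93.55 in WT and 669.5, 1864 and 1572 in OE with Dox (log2 fold 4.31, SE 0.94, adjusted p = 0.0045). PTK7 (1.09) and ROR1 (1.19) rose by about 1 unit of log2 fold, and FZD1 (-1.45), FZD9 (-1.73) and FZD2 (-0.68) fell. Without WT replicate 3 the count called higher was 3, and without WT replicate 1 it was 7. Of 14 genes of the destruction complex and the dishevelleds, none was called higher by limma, edgeR or DESeq2, with 0 at an unadjusted p under 0.05, and APC2, GSK3B and APC were called lower. That is 21.4% of the list, beside 21.2% of all genes tested. APC2 was the clearest, at 830.2, 891 and 925 in WT and 385, 382 and 378 after induction (log2 fold -1.21, SE 0.19, adjusted p = 0.00015). Without WT replicate 2 or OE with Dox replicate 3 the count of 3 became 1, and the call of APC was also lost without WT replicate 1 or OE with Dox replicate 2 (highest adjusted p 0.17 for APC and 0.09 for GSK3B). The list's median log2 fold was -0.01. Among 17 TCF/LEF factors and coactivators, 5 rose and 2 fell. TCF7L2 fell from 735, 829 and 676.5 to 259, 239.8 and 254 (log2 fold -1.57, SE 0.18, adjusted p = 4.4e-06) while LEF1 and TCF7 rose. The co-repressor TLE1 rose (log2 fold 1.12), and TLE4 fell (-0.97).

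The 15 largest rises among well-measured genes included 6 already named from the WNT pathway (DKK4, FGF20, NOTUM, DKK1, RNF43 and TRABD2A). ISM1, a secreted protein, stood at 0.947, 0 and 2.60 in WT and 622, 1018 and 1033 with Dox (log2 fold 8.83, SE 0.57, adjusted p = 4.8e-09). CHRM2, a muscarinic acetylcholine receptor, stood at 2.84, 0.894 and 2.60 and 997, 878 and 721 (log2 fold 8.18, SE 0.54, adjusted p = 5.1e-09). Both were at the detection limit in WT and far above it in every induced library. MME, the peptidase neprilysin, went from 0, 16.1 and 2.60 to 773, 865 and 721 (log2 fold 7.64), and the matrix protein EGFLAM from 0, 5.36 and 5.20 to 553, 753 and 444 (7.39). SEMA3E, a repulsive guidance cue, rose from 4.73, 10.7 and 13.0 to 1358, 1574 and 1179 (log2 fold 7.12, SE 0.45, adjusted p = 3.9e-09), and TWIST2, a mesenchymal transcription factor, from 0.947, 2.68 and 0 to 219.8, 204.5 and 202 (6.76). ZNF804B was at 0, 0 and 0.866 and then 341, 253 and 198 (7.71). In the uninduced line none of those 7 was called against WT (adjusted p from 0.37 to 1.0).

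A pair of the largest rises are genes best known from T lymphocytes, so other lymphocyte genes were looked up after these values were seen. TRDC, a constant segment of the T cell receptor, stood at 0.947, 4.47 and 0 in WT and 764, 743 and 288 with Dox (log2 fold 7.96, SE 0.56, adjusted p = 1.4e-08). GZMA, the protease granzyme A, stood at 1.89, 2.68 and 0.866 and 456, 373 and 434 (log2 fold 7.28, SE 0.47, adjusted p = 4.8e-09). The kinase ZAP70 went from 2.84, 1.79 and 2.60 to 203, 459 and 280.2 (6.46), the receptor chain CD247 from 5.68, 1.79 and 6.93 to 79.4, 83.65 and 108 (4.10) and TRAC from 0.947, 1.79 and 0 to 63.7, 80.9 and 43.3 (5.13). Of 16 lymphocyte genes looked up 6 were tested, and all 6 were called higher: these 5 and CD8A, a co-receptor of T cells, which went from 2.84, 0.894 and 5.20 to 26.8, 12.1 and 14.75 (log2 fold 2.33, adjusted p = 0.0014). All 6 were under 10 in every WT library and passed the filter only through the induced libraries. The filter thus left little room for another direction, and the count of 6 is no result about lymphocyte genes. The other 10 were not tested and stood at 10.9 or less in every WT, uninduced and induced library. Among these, CD3D and CD2 had no read in any of them, and CD3E, CD3G, TRBC1 and GZMB stood at no more than 0.923. The pan-leukocyte gene PTPRC stood at 3.69, 2.79 and 2.765 with Dox and 5.68, 0 and 1.73 in WT. The part of lymphocytes in these values was not tested.

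Some genes had no read in WT. In 21 of the genes tested no WT library had a read, and the filter required all their induced libraries to reach 10. Leaving out genes without a symbol and a few not reported here left 17. Besides DKK4 and WIF1, the highest were MUCL1, a small secreted mucin-like protein, at 118, 128 and 103 (at least 43.1-fold higher), LINC02178 at 126.5, 105 and 54.4 (at least 35.2-fold), DEFA5 at 153, 61.3 and 19.4 (at least 28.8-fold), REG1B at 126, 24.2 and 45.2 (at least 24.0-fold) and PTGDR, a prostaglandin receptor, at 54.5, 42.75 and 35.0 (at least 16.3-fold). RPL7P20 is a pseudogene of a ribosomal protein and its reads are uncertain. DESeq2 gave DEFA5, LINC02178, REG1B and RPL7P20 adjusted p-values of 0.17, 0.15, 0.18 and 0.18, while limma and edgeR called them. DEFA5 and REG1B are products of intestinal epithelium, and that tissue's other genes were looked up afterwards. Of 11 such genes 4 were tested and all 4 were called higher: DEFA5, REG1B, CDX1 at 30.5, 59.5 and 22.1 against 0, 0 and 0 in WT, and CDX2 at 18.5, 13.9 and 10.1 against 0, 0.894 and 0 (log2 fold 3.58, SE 0.56, adjusted p = 0.0001). All 4 passed the filter only through the induced libraries, and DEFA5 and REG1B had prompted the search. Their shared direction was thus largely set in advance and is no result about intestinal genes. The other 7 did not reach the filter. Of these, DEFA6 stood at 11.1, 0.929 and 0 with Dox and had no read in WT or without Dox, and REG1A stood at 8.31, 6.51 and 2.765 with Dox, 0.947, 1.79 and 0 in WT and 2.74, 7.40 and 5.44 without Dox. MUC2 had no read in any of these libraries, and LYZ, VIL1, OLFM4 and ALPI were at most 6.48.

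The falls of largest size among well-measured genes were led by VCAM1, an adhesion molecule of neural stem cells. It stood at 543, 809 and 822 in WT and 9.23, 23.2 and 2.765 after induction (log2 fold -6.19, SE 0.80, adjusted p = 0.00012). NR2E1, a nuclear receptor that keeps forebrain stem cells dividing, fell from 1358, 629 and 867 to 29.55, 53.9 and 10.1 (log2 fold -5.09, SE 0.70, adjusted p = 0.00018). The growth factor receptor FGFR3 fell from 2181, 2021 and 2512 to 97.9, 229.6 and 41.5 (log2 fold -4.49, SE 0.42, adjusted p = 3.7e-06), and the neurotrophin receptor NTRK2 from 1340, 1470 and 1228 to 53.6, 98.5 and 41.5 (log2 fold -4.45, SE 0.42, adjusted p = 2.5e-06). In these genes all induced libraries lay well below all WT ones, with OE with Dox replicate 3 lowest in each. GDF7, a roof plate BMP ligand, fell from 348, 484 and 383 to 11.1, 32.5 and 23.0 (-4.24) and ADCY2, an adenylate cyclase, from 349, 269.9 and 359.5 to 23.1, 27.9 and 8.295 (-4.12). CAPN6 (-3.93) and CCN2, a target of YAP signalling (-4.02), complete the group with POU3F4 and ZNF558. In the line without Dox GDF7 (log2 fold -1.88, adjusted p = 0.022) and CAPN6 (-1.80, 0.016) were already called lower than WT. VCAM1 (-2.55, 0.095), CCN2 (-1.98, 0.07), NTRK2 (-1.29, 0.096), ADCY2 (-1.11, 0.16), NR2E1 (-0.90, 0.55) and FGFR3 (-0.83, 0.32) were not called there.

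Some genes already differed from WT in the line without Dox. POU3F4, a neural POU factor, stood at 464, 1202 and 759 in WT, 127, 126 and 50.8 in the uninduced line and 48.9, 41.8 and 16.6 with Dox. ANOS1, a matrix protein of migrating neurons, stood at 850.1, 1157 and 1011 in WT, 87.8, 145 and 108 without Dox and 108, 137.5 and 116 with Dox, so that with and without Dox the level was alike in range and far below WT (log2 folds -3.05 and -3.15). ZNF558 stood at 260.3, 271 and 246 in WT, 16.5, 7.40 and 0 without Dox and 15.7, 25.1 and 2.765 with Dox. Its call against WT (adjusted p = 0.035) was lost without each single library other than OE with Dox replicate 2 (adjusted p from 0.069 to 0.14), without the filter on low counts (0.085), with sample weights (0.075) and with a pseudocount of 0.5 (0.074). Only 3 tested genes had no read in any induced library while WT had reads: CAT, the peroxide-degrading enzyme catalase, ZNF229 and ZSCAN1. CAT stood at 50.2, 78.65 and 96.15 in WT (at least 27.0-fold lower with Dox), and the uninduced line had no read of it either. ZNF229 stood at 67.2, 78.65 and 59.8 in WT and 0.9145, 0.925 and 0 without Dox, and ZSCAN1 at 14.2, 18.8 and 38.1 in WT and 0 without Dox. In the other direction, CYP1B1, a cytochrome of steroid and xenobiotic metabolism, stood at 18.0, 14.3 and 9.53 in WT, 315, 214 and 73.4 without Dox and 1041, 1291 and 982 with it. NFIA, a factor of gliogenesis, stood at 17.0, 7.15 and 4.33 in WT, 70.4, 24.1 and 43.5 without Dox and 398, 453 and 568 with Dox. AHR, the receptor that induces CYP1B1, was looked up afterwards and went from 18.9, 14.3 and 12.1 in WT and 46.6, 26.8 and 12.7 without Dox to 668, 534 and 512.5 with it (log2 fold 5.16, SE 0.44, adjusted p = 1.2e-07).

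**Figure D3:**
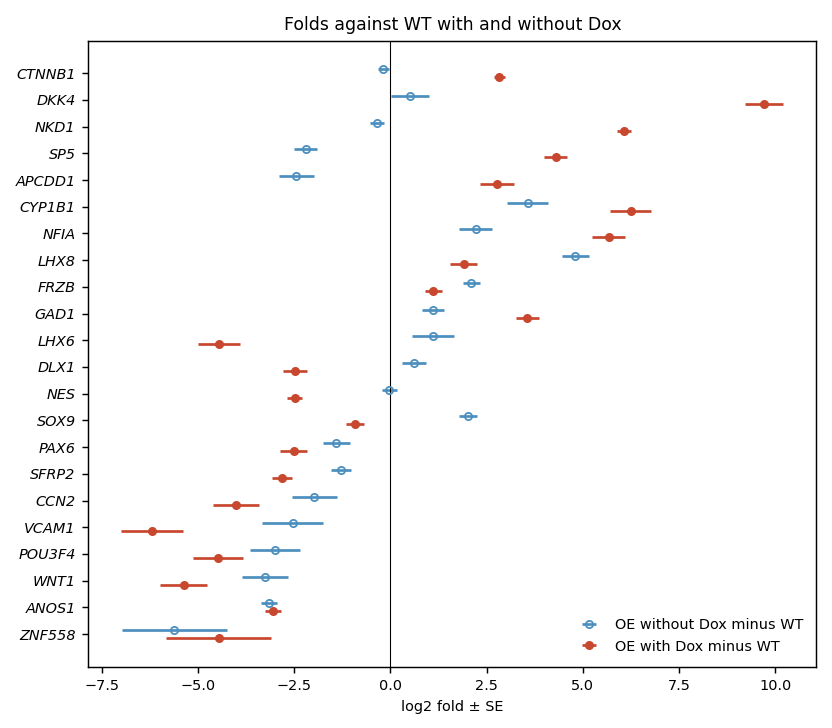
Log2 fold against WT with its SE for 22 genes, in the line without Dox (open blue) and with Dox (filled red), both against the same WT libraries. CTNNB1, DKK4 and NKD1 lie near 0 without Dox, while ANOS1 and ZNF558 are low in both and LHX8 and FRZB are higher without Dox than with it.

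Genes that define the MGE were more often lower than higher in OE with Dox against WT. Of 16 MGE factors 15 were tested, 9 were called lower and 3 higher, and the median log2 fold was -1.14. The 9 became 6 without WT replicate 3 or OE with Dox replicate 3, 7 or 8 without any other of these libraries, and 8 by edgeR and by DESeq2. LHX6, the factor of MGE-derived interneurons, stood at 79.5, 85.8 and 111 in WT and 9.23, 2.79 and 0.922 after induction (log2 fold -4.45, SE 0.55, adjusted p = 3.2e-05). OLIG2, a factor of ventral progenitors, stood at 209, 349 and 341 and 42.5, 29.7 and 27.65 (log2 fold -3.12, SE 0.23, adjusted p = 2.1e-08). For both genes every induced library lay below every WT library. The defining MGE factor NKX2-1 did not pass the test: it stood at 373, 621 and 664 in WT and 910.5, 274 and 296 with Dox, with overlapping groups (log2 fold -0.35, adjusted p = 0.6). OE with Dox replicate 1 was the high one. LHX8, a factor of cholinergic MGE neurons, was higher than WT, at 97.0, 69.7 and 109 against 37.9, 17.0 and 19.9 (log2 fold 1.90, SE 0.35, adjusted p = 0.00089), yet the uninduced line stood at 985, 379 and 855. NKX2-1 also stood highest without Dox, at 1845, 1378 and 2394 (log2 fold 1.77 against WT, adjusted p = 0.017). MAF, an interneuron factor, rose from 357, 294 and 318 to 533, 1084 and 932 (log2 fold 1.34). In bulk RNA, fewer cells of a type and less RNA per cell cannot be told apart.

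Other forebrain identity genes were more often lower than higher. Among 11 telencephalon factors 6 were called lower and 1 higher, with DLX1 at 564, 510.3 and 574 in WT and 106, 158 and 54.4 with Dox (log2 fold -2.49, SE 0.31, adjusted p = 2.5e-05), DLX2 at 365, 228 and 319 and 59.1, 83.65 and 28.6 (log2 fold -2.49) and DLX5 (-1.94) and DLX6 (-2.64) lower as well. The count of 1 became 0 without OE with Dox replicate 1 or OE with Dox replicate 3. SIX3 stood at 388, 188 and 276 in WT and 202, 287 and 321 with Dox (log2 fold -0.04, adjusted p = 0.95).

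GABA neuron genes had the lowest median of the lists with at least 5 tested members, at -2.43. Of 19 genes 16 were tested, 12 were called lower and 3 higher. The vesicular GABA transporter SLC32A1 fell from 178, 126 and 159 to 19.4, 32.5 and 15.7 (log2 fold -2.77, SE 0.26, adjusted p = 3.2e-07), and the neuregulin receptor ERBB4 from 517, 963.5 and 599 to 106, 119.9 and 79.3 (log2 fold -2.72, SE 0.24, adjusted p = 2.1e-07). The enzymes that make GABA moved apart. GAD2 stood at 149.6, 207 and 237 in WT and 32.3, 44.6 and 5.53 after induction (log2 fold -3.19, SE 0.53, adjusted p = 0.00062), and GAD1 at 253, 265 and 215 and 2525, 2848 and 3313 (log2 fold 3.56, SE 0.29, adjusted p = 2.4e-07). GAD1 was in part high without Dox, at 1010, 414 and 349. The chemokine receptor CXCR4 rose as well (log2 fold 1.18). SST, an interneuron peptide, fell from 34.1, 81.3 and 146 to 5.54, 16.7 and 12.0 (-2.72). Of 16 factors of the lateral and caudal eminences 4 rose and 4 fell. PROX1 rose from 287, 276 and 249.5 to 1989, 1984 and 1594 (log2 fold 2.77, SE 0.24, adjusted p = 1.2e-07) and FOXP2 from 41.65, 80.4 and 48.5 to 533, 353 and 271 (log2 fold 2.74, SE 0.30, adjusted p = 2e-06). NR2F2 fell from 4164, 3712 and 3952 to 655, 2070 and 1036 (log2 fold -1.81, SE 0.35, adjusted p = 0.0015), and so did SP8 (-1.55) and SP9 (-2.07).

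Of 22 dorsal and hem genes 21 were tested, and 8 were called lower, 1 higher and 12 not (median log2 fold -1.10). In the uninduced line against the same WT libraries 7 were called lower and 0 higher by limma, with a median of -0.90. The median for OE with Dox minus OE without Dox was -0.42. PAX6 stood at 2431, 2186 and 2592 in WT and 286, 548 and 466 with Dox (log2 fold -2.52, SE 0.34, adjusted p = 6.2e-05), and the roof plate factor LMX1A at 162, 122 and 153 and 7.39, 19.5 and 14.75 (log2 fold -3.38). OTX1 was the one that rose, from 620.1, 884 and 921 to 2311, 2784 and 3224 (log2 fold 1.79, SE 0.32, adjusted p = 0.00061). Without WT replicate 1 or by edgeR 2 of the list were called higher, and by DESeq2 3. EOMES and TBR1, of cortical excitatory lineages, were not called, and 1 library stood apart in each. EOMES stood at 499, 21.4 and 23.0 with Dox against 60.6, 17.9 and 26.85 in WT, and TBR1 at 279.8, 64.1 and 108 against 72.9, 10.7 and 32.05. OE with Dox replicate 1 held the high value in both, and also in the proneural factors NEUROG2 (729.5, 132 and 111 with Dox) and NEUROD4 (293, 54.8 and 61.75 with Dox).

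Some genes of more posterior regions rose. Among 15 tested factors of the midbrain, hindbrain and spinal cord, 6 were called higher, 7 were not called and 2 were lower, or 1 lower without WT replicate 3, OE with Dox replicate 1 or OE with Dox replicate 3. EN1, a factor of the midbrain and hindbrain boundary, stood at 0, 4.47 and 1.73 in WT and 27.7, 216.5 and 91.25 with Dox (log2 fold 5.08, SE 0.69, adjusted p = 2.4e-05). FGF8, the organizer signal of that boundary and of the anterior forebrain, rose from 25.6, 9.83 and 19.1 to 1052, 1019 and 2171 (log2 fold 6.21, SE 0.80, adjusted p = 9.5e-05), and OTX2, a factor of forebrain and midbrain, from 846, 1788 and 1122 to 2518, 2782 and 3571 (log2 fold 1.29, SE 0.24, adjusted p = 0.00073). FOXA1, of the floor plate, rose from 18.9, 59.9 and 22.5 to 1098, 727 and 589 (log2 fold 4.67, SE 0.54, adjusted p = 9.3e-06), and PAX5 by a log2 fold of 2.29. The boundary factor GBX2 (log2 fold 0.74) and PAX3 (0.31), whose induced libraries ran from 17.5 to 592, were not called. Of 25 HOX and CDX genes only 7 reached the filter, and 18 did not, at 13.9 or less. Among the 7, CDX1, CDX2, HOXC4 and HOXB1 were called higher. CDX1, CDX2 and HOXC4 were under 10 in every WT library, so they passed the filter only through the induced ones. The HOX values stayed low, with HOXC4 at 26.8, 20.45 and 14.75 and HOXB1 at 5.54, 40.9 and 37.8, and HOXB1 lost its call without WT replicate 1, WT replicate 3, OE with Dox replicate 2 or OE with Dox replicate 3 (highest adjusted p = 0.11), by edgeR (0.15) and by DESeq2 (0.55). All 5 ZIC genes, factors of the dorsal and medial neural tube, were called higher, with a median log2 fold of 2.13. ZIC4 stood at 261, 263 and 207 in WT and 3731, 3556 and 3590 with Dox (log2 fold 3.90, SE 0.27, adjusted p = 2.4e-08), and ZIC1 at 1750, 1292 and 1235 and 5937, 5937 and 6601 (log2 fold 2.13, SE 0.38, adjusted p = 0.00091). Among 21 tested diencephalon and hypothalamus factors 3 rose and 5 fell. The hypothalamic factor OTP fell from 124, 55.4 and 78.0 to 3.69, 9.29 and 12.9.

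**Figure D4:**
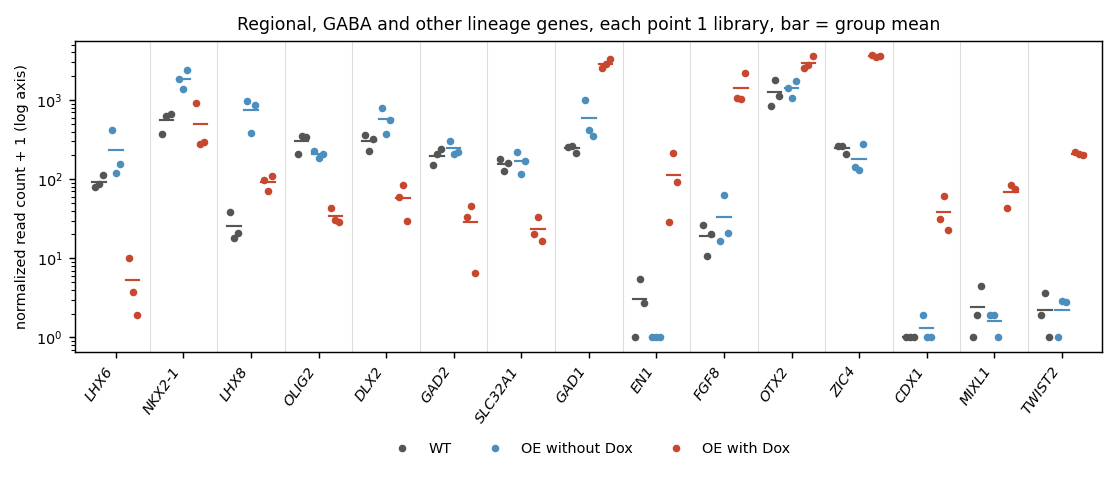
Normalized read count plus 1 on a log axis for 15 regional, GABA and other lineage genes, 1 point per library, bars at the mean of 3 libraries, for WT and for the inducible line with and without Dox. LHX6, OLIG2, DLX2, GAD2 and SLC32A1 stand lowest with Dox, GAD1, EN1, FGF8, OTX2, ZIC4, CDX1, MIXL1 and TWIST2 highest, and NKX2-1 overlaps between WT and OE with Dox.

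Most of the fibroblast growth factor ligands tested were called higher. Of 19 ligands 13 were tested and 10 were called higher, with none called lower by limma, edgeR or DESeq2 (0 at an unadjusted p under 0.05) and a median log2 fold of 2.77. Members such as FGF20 were under 10 in every WT library and passed the filter only through the induced libraries. The counts and the median are therefore partly set by the filter. FGF17, a relative of FGF8, stood at 16.1, 8.94 and 11.3 in WT and 1166, 1310 and 1536 with Dox (log2 fold 6.70, SE 0.32, adjusted p = 1.3e-10). FGF18 rose from 28.4, 8.94 and 12.1 to 276, 198 and 264.5 (log2 fold 3.97, SE 0.44, adjusted p = 2.7e-06), FGF19 from 65.3, 69.7 and 25.1 to 368, 263 and 400 (2.77) and FGF9 from 62.5, 50.9 and 74.5 to 174, 307 and 259 (1.94). FGF8, FGF17, FGF18 and FGF20, picked from these same data, were each higher in every induced library than in any WT library. The same was true of 16.8% of all genes tested. The receptors, looked up after FGFR3 was seen among the largest falls, were lower or not called. FGFR2 fell from 889.9, 638 and 692 to 48.0, 176 and 41.5 (log2 fold -3.36, SE 0.45, adjusted p = 0.0001), and FGFR4, at lower counts, from 47.3, 30.4 and 33.8 to 23.1, 10.2 and 3.69 (-1.79). FGFR1 stood at 1990, 1697 and 1826 and 1376, 1876 and 1856 (log2 fold -0.12, SE 0.14). Among 15 feedback genes of FGF and ERK signalling 5 were called higher and 1 lower. SPRY2 rose from 446, 172 and 165.5 to 1340, 1489 and 1441 (log2 fold 2.60, SE 0.39, adjusted p = 0.00018) and ETV4 from 88.0, 30.4 and 50.2 to 233, 348.5 and 504 (log2 fold 2.72, SE 0.44, adjusted p = 0.00018). WT replicate 1 stood high in several of them, ETV5 among them (442, 63.5 and 111 in WT, 268, 585.5 and 564 with Dox, not called). Without that library 9 were called higher, and without WT replicate 2, WT replicate 3, OE with Dox replicate 2 or OE with Dox replicate 3 it was 3.

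Other signalling pathways were mixed. In the SHH pathway 3 of 16 were called higher and 4 lower, 43.8% in all, beside 21.2% of all genes tested. The median log2 fold was -0.71. Without Dox against the same WT libraries 3 were called lower and 0 higher by limma, with a median of -0.68. The median for OE with Dox minus OE without Dox was 0.48. PTCH1, receptor and target of SHH, fell from 2201, 3254 and 2570 to 1154, 933 and 702 (log2 fold -1.53, SE 0.23, adjusted p = 8.9e-05), and the co-receptor BOC from 622, 699.8 and 563 to 98.8, 314 and 188 (-1.79). PTCH1 stood at 1325, 1700 and 1049 without Dox. DISP1, which releases SHH, rose from 62.5, 96.5 and 74.5 to 305, 557 and 403 (log2 fold 2.40, SE 0.25, adjusted p = 1.1e-06), and the mesenchymal targets FOXF1 (3.76) and FOXF2 (4.93) rose from near 0. Without WT replicate 2, WT replicate 3 or OE with Dox replicate 3 the 4 falls became 2. Of 10 tested BMP ligands, BMP4 rose from 12.3, 21.45 and 15.6 to 352, 619.9 and 406 (log2 fold 4.71, SE 0.38, adjusted p = 6.7e-08) and BMP6 by 2.68, while GDF7, GDF10 (-3.86) and BMP7 (-0.86) fell, 3 in all and 5 without WT replicate 1. Among 15 tested response genes of BMP and TGF-beta 4 rose (2 without WT replicate 2 or OE with Dox replicate 2) and 4 fell, with the homeobox gene MSX1 higher (103, 76.0 and 121 and 717, 445 and 511, log2 fold 2.46) and ID4 lower (1978, 1155 and 1480 and 350, 336 and 164, log2 fold -2.48).

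NOTCH genes were called lower more often than higher. Of 13 receptors, ligands and fringes 6 were called lower and 1 higher, and of 9 target genes 5 lower and 2 higher. The ligand DLL1 fell from 1238, 924 and 1176 to 432, 374 and 192 (log2 fold -1.81, SE 0.22, adjusted p = 1.1e-05) and the sugar transferase LFNG from 494, 603 and 563 to 84.95, 163 and 61.75 (log2 fold -2.53, SE 0.24, adjusted p = 6e-07). The target HES5 stood at 523, 468 and 506 in WT and 208, 166 and 61.75 with Dox (log2 fold -1.94, SE 0.31, adjusted p = 0.00025) and at 1298, 1314 and 1845 in the uninduced line. HES4 (-1.93), HES6 (-1.35) and NRARP (-1.62) fell too, while HEY1 (1.42) and HEY2 (2.37) rose. The 6 became 3 without WT replicate 1 or OE with Dox replicate 3, and the 1 higher became 0 without WT replicate 3 or OE with Dox replicate 1. Retinoic acid genes rose more often than they fell, at 6 against 3 of 12 tested. ALDH1A2, which makes retinoic acid, rose from 0, 2.68 and 2.60 to 156, 99.4 and 135.5 (log2 fold 5.77, SE 0.59, adjusted p = 9.6e-07). The binding proteins CRABP1 (-2.05) and CRABP2 (-1.06) fell.

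Neural progenitor genes were more often lower than higher. Of 20 radial glia and progenitor genes 19 were tested, 12 called lower and 2 higher (median log2 fold -0.92). NES, the intermediate filament nestin, had nearly equal counts in WT, at 8328, 8284 and 8328, and stood at 2109, 1375 and 1124 with Dox (log2 fold -2.49, SE 0.20, adjusted p = 5.8e-08). SOX3 fell from 1553, 838 and 1131 to 117, 237 and 49.8 (log2 fold -3.34, SE 0.48, adjusted p = 0.00022), the fatty acid binder FABP7 from 882, 1148 and 1358 to 159.7, 135 and 92.2 (log2 fold -3.14, SE 0.25, adjusted p = 8.9e-08) and PTPRZ1, a receptor phosphatase, from 5689, 6932 and 5524 to 1857, 1698 and 805 (-2.14). SOX2 was not called, at 3081, 3171 and 2944 in WT and 2766, 2616 and 2684 with Dox (log2 fold -0.19, SE 0.13). The glutamate transporter SLC1A3 rose against the group, from 457, 776 and 577 to 6740, 4945 and 4082 (log2 fold 3.12, SE 0.32, adjusted p = 2.6e-06). VIM was higher, at 9600, 5862 and 5649 and 11600, 12140 and 9727 (log2 fold 0.70), a call lost without WT replicate 2, WT replicate 3, OE with Dox replicate 1 or OE with Dox replicate 2 (highest adjusted p = 0.1), which left SLC1A3 as the 1 member called higher. SOX9 was lower than WT with Dox (log2 fold -0.92) and higher than WT without it (2.02, adjusted p = 7.4e-05).

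Neuronal genes were called in both directions, lower more often than higher, and many were not called. Of 14 tested proneural and early neuron factors 6 were called lower and none higher by limma, with 2 higher at an unadjusted p under 0.05, 1 called by edgeR and 2 by DESeq2. Of 23 neuron genes 9 were called lower, 3 higher and 11 not, with a median log2 fold of -0.25. DCX, a marker of migrating neurons, fell from 2511, 2966 and 2063 to 911, 954 and 733 (log2 fold -1.53, SE 0.15, adjusted p = 6e-07) and STMN2 from 1846, 1943 and 1633 to 881, 781 and 670.1 (log2 fold -1.22, SE 0.14, adjusted p = 2.4e-06). In the uninduced line both stood above WT, DCX at 6362, 5027 and 4897 and STMN2 at 3169, 3844 and 2915. MAP2 (-1.13), SYT1 (-1.38) and TUBB3 (-1.06) fell too. CNTN2, an axonal adhesion molecule, rose from 393, 458.5 and 307 to 6419, 7107 and 5421 (log2 fold 4.04, SE 0.20, adjusted p = 1.7e-10) and GAP43, of growth cones, from 409, 581 and 586 to 1368, 1901 and 2053 (log2 fold 1.75, SE 0.23, adjusted p = 1.7e-05). Of 19 tested receptor subunits for glutamate and GABA 7 fell and 3 rose. GRIA1 fell from 202, 268 and 239.9 to 77.6, 69.7 and 61.75 (log2 fold -1.75, SE 0.19, adjusted p = 1.5e-06), and the kainate receptor GRIK1 rose from 43.55, 99.2 and 103 to 538, 472 and 344 (log2 fold 2.52, SE 0.40, adjusted p = 0.00012). Of 35 guidance genes 15 fell and 8 rose. NTN1 fell from 768, 862 and 972 to 210.5, 276 and 231 (log2 fold -1.86, SE 0.14, adjusted p = 3e-08) and EPHB2 from 1744, 1955 and 1680 to 529, 533.5 and 322 (log2 fold -1.99, SE 0.18, adjusted p = 2.4e-07). SEMA3E, SEMA3C (3.23), SEMA5A (3.11) and the semaphorin receptors NRP1 (2.47) and NRP2 (2.39) rose.

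Genes of other lineages were called higher in several lists, and the counts were low for most. Of 18 primitive streak and mesoderm genes 8 were tested, 7 of them called higher (median log2 fold 3.61). MIXL1, EVX1 and FOXF1 were under 10 in every WT library and passed the filter only through the induced libraries. The count and the median are therefore partly set by the filter. MIXL1 stood at 0, 0.894 and 3.465 in WT and 42.5, 83.65 and 74.7 with Dox (log2 fold 5.0, SE 0.58, adjusted p = 4.2e-06), and EVX1 at 0, 1.79 and 0.866 and 48.0, 91.1 and 74.7 (log2 fold 5.33, SE 0.56, adjusted p = 1.4e-06). The list summed to 73.6 to 101 in WT and 368 to 815 with Dox. TBX6, MSGN1, GSC, SOX17 and 6 other members stayed at 23.1 or less in each of the 6 libraries. Of 16 tested mesenchyme genes 9 rose. TWIST2, 1 of these 9, was under 10 in every WT library and passed the filter only through the induced libraries. PRRX1 stood at 24.6, 6.26 and 13.0 and 310.3, 269 and 229 (log2 fold 4.29, SE 0.51, adjusted p = 5.4e-06), and the list summed to 1099 to 2534 in WT and 3437 to 8392 with Dox. COL3A1 alone ran from 15.2 to 1023 within WT and from 481 to 3175 with Dox and was not called. Matrix genes rose in part, at 16 higher and 7 lower of 36. LAMB1 went from 124, 132 and 113 to 823, 1704 and 1172 (log2 fold 3.26, SE 0.32, adjusted p = 9.6e-07) and COL18A1 from 1103, 792 and 732 to 1975, 3362 and 3030 (1.66), while ITGB8 fell from 1423, 929 and 647 to 112, 158 and 118 (-2.88). Without WT replicate 3 or OE with Dox replicate 2 the 16 became 10. Of 14 endothelium and blood genes 3 were tested and 2 were called higher. CD34, 1 of these 2, was under 10 in every WT library and passed the filter only through the induced libraries, so its direction was largely set in advance. CD34 stood at 0, 0.894 and 1.73 in WT and 63.7, 15.8 and 22.1 with Dox (log2 fold 4.08, SE 0.66, adjusted p = 0.00016), and the receptor KDR at 20.8, 27.7 and 13.9 and 58.2, 121 and 82.0 (log2 fold 2.00, SE 0.43, adjusted p = 0.0021). The 11 others, PECAM1, CDH5 and PTPRC among them, stood at 8.52 or less in each of the 6 libraries. The part of other cell types in the results above was not tested.

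Some cell cycle genes were lower. Of 40 genes of G2/M and mitosis 20 were called lower and none higher by limma, edgeR or DESeq2 (0 at an unadjusted p under 0.05), with a median log2 fold of -0.55. MKI67 stood at 2562, 3519 and 2585 in WT and 1989, 1424 and 2274 with Dox (log2 fold -0.62, SE 0.19, adjusted p = 0.022), a call lost without WT replicate 2 or OE with Dox replicate 2 (highest adjusted p = 0.14). CDC25B stood at 563, 482 and 487 and 223.5, 211 and 304 (log2 fold -1.07, SE 0.15, adjusted p = 2.6e-05). The 20 became 3 without OE with Dox replicate 2, 7 without WT replicate 2, 12 without WT replicate 3 and 28 without OE with Dox replicate 3. Of 36 genes of G1/S and DNA replication 7 were called lower by limma, 0 without WT replicate 2, WT replicate 3 or OE with Dox replicate 2, 4 without OE with Dox replicate 1 and 11 without OE with Dox replicate 3. Pluripotency genes that were still measurable fell, 6 of 7, among them SALL4 (639, 655 and 599 and 190.2, 243.5 and 166, log2 fold -1.67), while POU5F1 and NANOG stayed at 18.5 or less. Among immediate early genes 4 of 13 were called lower (30.8%, beside the same shares), JUN from 852, 405 and 618 to 182, 199.8 and 147.5 (log2 fold -1.77, SE 0.26, adjusted p = 6.3e-05). Interferon genes were called higher for 5 of 17, and OE with Dox replicate 1 stood apart in them: HLA-B was at 836, 177 and 109 with Dox and 204.5, 153 and 169 in WT, and B2M at 1659, 558 and 552 and 523.5, 516 and 515. Without that library 2 of the 17 were called, and 3 without any 1 of the WT libraries. The 5 are 29.4% of the list, beside 11.0% of all genes tested called higher and 21.2% in either direction. No gene was called in either direction by limma, edgeR or DESeq2 among 30 cytosolic ribosomal protein genes (1 at an unadjusted p under 0.05) or 20 tested hypoxia and glycolysis genes (0 at that level).

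**Figure D5:**
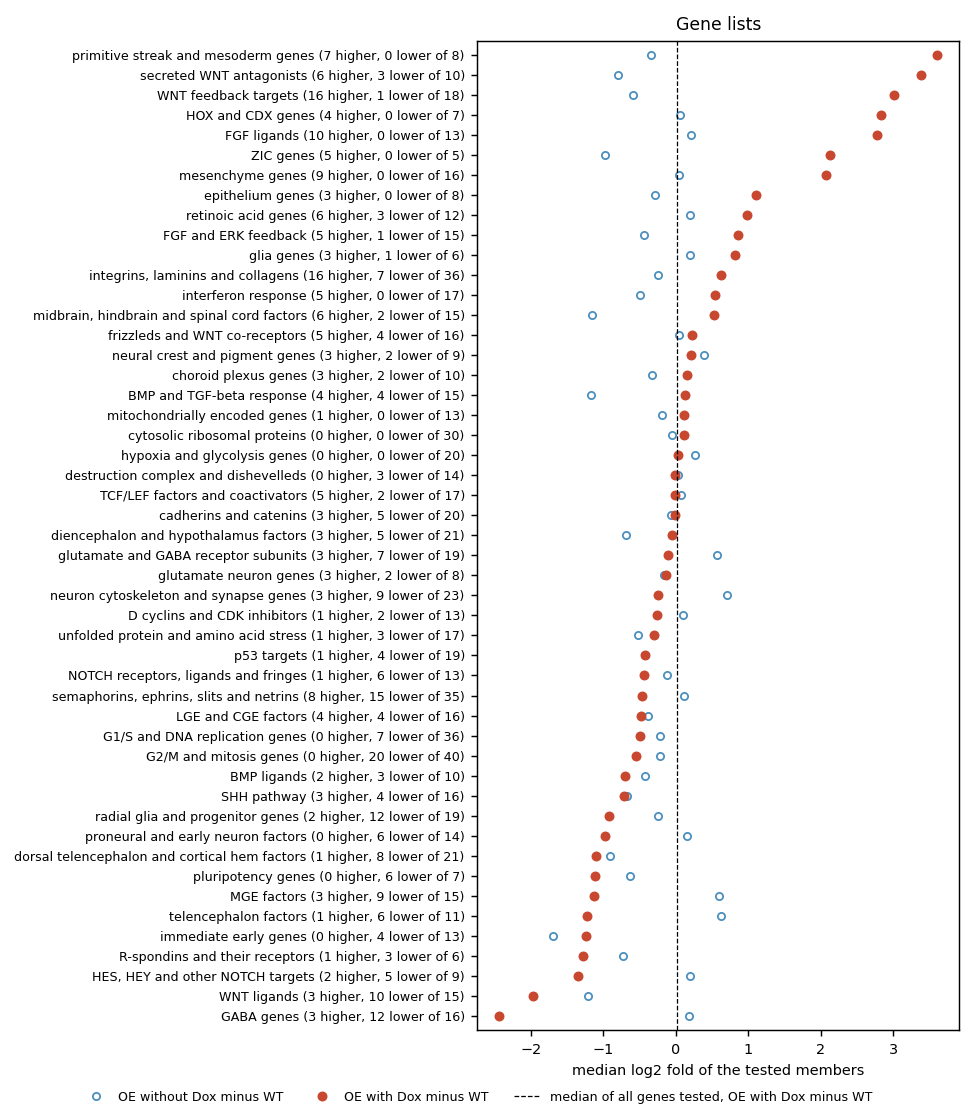
Median log2 fold of the tested members of each gene list with at least 5 tested members, OE with Dox minus WT (filled red) and OE without Dox minus WT (open blue), with the number of members called higher and lower with Dox in brackets. The dashed line is the median of all 16101 genes tested (0.02). Mesoderm genes, WNT antagonists and WNT feedback targets have the highest medians with Dox, and GABA genes and WNT ligands the lowest. Members under 10 in every WT library passed the filter only through the induced libraries, which favours a high median. The mesoderm list holds several of them, and the lists of WNT feedback targets, WNT antagonists and FGF ligands hold such members too.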

How the data were processed

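RNA-seq of 500 ng total RNA per sample was deposited by the authors as 1 table of normalized read counts per gene, a signal in which every value was a whole number of reads divided by a factor per library, at a tolerance of 0.01 (100% of values, 0.866 to 0.947 per read). Per the submitters' processing notes TopHat2 2.1.1, HTSeq 0.9.1, R 3.4.0, DESeq2 and hg38 were used. The annotation release and the strand setting are not given in the sources used here. Groups came from the labels, and columns were matched by name. Genes at 10 or more in at least 3 of the 6 libraries were fitted as log2(value + 1) with limma 3.58.1 (group means over all 14 libraries, trend and robust settings, 10 residual degrees of freedom, Benjamini-Hochberg at 0.05). A fold understates the change of low genes. On 200 genes changed in simulated data the fit was tested. Recovered reads were refitted with edgeR 4.0.16 and DESeq2 1.42.0. Gene symbols came from a GENCODE 44 table, which names 56948 of the 58051 identifiers. Named genes were the 15 largest rises and 15 largest falls with a mean of at least 100, genes at 0 in 1 group, abundant genes, genes shared with the uninduced line and members of 51 gene lists. The members and lists were chosen with earlier results of these data known, and genes looked up after values were seen are said to be so. A few genes are not reported here.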

Additional observations from a re-analysis of the deposited data

How the results depend on the processing

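Over the alternatives run, the counts of genes called stayed within 1.5 times the 1772 higher and 1647 lower. They were 1753 and 1636 with a pseudocount of 0.5, 1820 and 1665 with 5, 2098 and 1748 without the filter, 1340 and 1259 with a minimum of 50, 1472 and 1311 with the 2 groups alone, 1722 and 1701 with edgeR and 1814 and 1803 with DESeq2. With upper-quartile scaling they were 1568 and 1852, with a median shift of -0.05 on the log2 scale. Leaving out each library in turn gave 1356 to 1632 higher and 1341 to 1516 lower. With the replicate number as a block, 1977 genes were higher and 1890 lower. Same-numbered libraries of WT and OE with Dox had correlated deviations of 0.057, 0.041 and 0.264, of which only that of replicate 3 was over 0.1, so the numbers were not taken as pairs. OE with Dox replicate 1 correlated best with WT replicate 2 (0.117). Of 249 named genes called besides CTNNB1, 212 kept their call and direction in every alternative, and 31 lost it in at least 1 fit without a library. ENO1 and ALDOA, glycolysis enzymes among the abundant genes, were not called and changed sign: the log2 fold of ENO1 was 0.22 with sample weights, 0.01 with edgeR, 0.02 with DESeq2 and -0.23 to 0.35 with each library left out, and that of ALDOA 0.19 with sample weights and -0.5 to 0.32 with each library left out. The cause was not tested. The share of promoters of genes called higher with the letters searched was 9.19% with both heptamers, 16.5% with CTTTGA and 3.66% with CTTTGAT. For genes called lower these were 6.9%, 13.4% and 2.42%, and for all genes tested 6.13%, 12.6% and 2.2%. The groups are not compared, for the reason given with the sequences. Genes under 3 reads in a library are at its limit of detection.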

Other observations

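Values of further genes, looked up after the calls were seen, belong to no list. LRRC17, a secreted leucine-rich repeat protein, stood at 35.0, 59.9 and 27.7 in WT and 3259, 2710 and 3349 in OE with Dox (log2 fold 6.28, SE 0.42, adjusted p = 2.5e-08). The desmosome protein DSP stood at 153, 93.85 and 52.0 and 2249, 3260 and 2878 (log2 fold 4.91, SE 0.33, adjusted p = 2e-08), the neural adhesion molecule CHL1 at 166, 315 and 210.5 and 5830, 6315 and 5164 (log2 fold 4.69, SE 0.23, adjusted p = 1.7e-10), and the basement membrane protein FREM2 at 211, 515 and 273 and 5542, 5537 and 6439 (log2 fold 4.23, SE 0.25, adjusted p = 4.7e-09). For these 4 genes every induced library lay above every WT library. SOX21, a factor of neural progenitors, went the other way, from 1805, 725 and 1131 to 200.4, 223 and 109.7 (log2 fold -2.74, SE 0.30, adjusted p = 4.5e-06). PAM, an enzyme that matures neuropeptides, stood at 1253, 2744 and 1835 in WT and 6547, 8744 and 8233 with Dox (log2 fold 2.07, SE 0.19, adjusted p = 4.1e-07).

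Genes of other lineages were also measured. Among 9 tested neural crest and pigment genes 3 were called higher and 2 lower, and SOX10 did not reach the filter. PMEL, a pigment granule protein, stood at 216, 233 and 269 in WT and 669.5, 1297 and 704 with Dox (log2 fold 1.83, SE 0.39, adjusted p = 0.0028). Of 8 tested epithelium genes 3 were called higher. Of 6 tested glia genes 3 were called higher and 1 lower. CSPG4, of oligodendrocyte precursors and pericytes, rose from 22.7, 34.0 and 22.5 to 54.5, 73.4 and 72.8 (log2 fold 1.32, SE 0.28, adjusted p = 0.0017). The count of 3 was 1 without WT replicate 3 or OE with Dox replicate 2 and by edgeR, and 2 without any other of these libraries and by DESeq2, and the 1 lower became 2 without OE with Dox replicate 1. The untested glia genes, GFAP and AQP4 among them, stood at 12.9 or less in each of the 6 libraries. Of 4 tested muscle genes TNNT1, a troponin, was called higher, from 28.4, 10.7 and 18.2 to 49.9, 82.7 and 62.7 (log2 fold 1.79, SE 0.37, adjusted p = 0.0015), and the untested ones, MYOD1 and MYOG among them, stood at 10.4 or less. The called share was 25.0% for muscle genes and 37.5% for epithelium genes, beside 21.2% of all genes tested. The muscle count is near that background.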
